A study of Mus musculus with 18 samples.

Results

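The Akt inhibitor MK-2206 was tested in microglia that carry the Alzheimer's disease risk variant R47H of the receptor Trem2 and received no tau fibrils. The members of this comparison are 6 of the 18 libraries of the study, 3 of R47H/+ cells with MK-2206 and 3 of R47H/+ cells without it, chosen by their labels. The cells were primary mouse microglia from pups of postnatal days 0 to 3, grown for 10 days in mixed culture before the microglia were isolated and plated. The genotype of both groups is labelled hTrem2 R47H/+, so the variant is shared by the treated and the untreated cells. Per the labels' protocol, MK-2206 was given at 1 µM for 6 h, with 0.01% DMSO, the solvent, as its control. How long the cells without tau stayed in culture after those 6 h is not given in the sources used here. The other 4 groups were Trem2+/+ cells without and with 0N4R tau fibrils at 1 µg/ml, R47H/+ cells with tau, and R47H/+ cells with MK-2206 and tau. Whether replicates were independent cultures is not stated in the labels, and the p-values rest on the spread among libraries, which may be technical.

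Akt is a kinase that is switched on when phosphatidylinositol 3-kinase (PI3K) makes its lipid at the cell membrane, for example below Trem2 and its adaptor, below the receptors for insulin and IGF1, and below the receptor for CSF1. Active Akt phosphorylates the FOXO transcription factors and keeps them out of the nucleus, and it raises the activity of mTORC1, which drives protein, lipid and nucleotide synthesis. MK-2206 binds Akt away from the catalytic site and keeps them from being phosphorylated. Loss of Akt signalling is known to raise FOXO target genes, among them those of insulin and IGF receptors and their adaptors, and to lower cyclin D1.

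Counts of reads per gene were measured by RNA sequencing, and levels are given as CPM, the count of a gene divided by all counts of its library and scaled to 1000000. The 6 libraries held between 16288531 and 18577842 counts. Of 54532 genes in the table, 12374 passed a filter on low counts and were tested by edgeR's quasi-likelihood test, with log2 fold changes of MK-2206 over R47H/+ and p-values adjusted over all 12374 genes by the Benjamini-Hochberg method. Scaling factors of the 6 libraries lay between 0.991 and 1.009. Defining markers of microglia and macrophages were present in all 6 libraries, and their 15 genes summed to 8201 to 8829 CPM with MK-2206 and 10572 to 10976 CPM in R47H/+ cells. Neuron markers summed to 3.52 to 6.23 CPM with MK-2206 and 4.73 to 5.56 CPM in R47H/+ cells. Astrocyte markers summed to 59.4 to 78.3 CPM with MK-2206 and 72.8 to 77.6 CPM in R47H/+ cells. Fibroblast and vascular markers summed to 33.4 to 36.8 CPM with MK-2206 and 28.9 to 36.8 CPM in R47H/+ cells. For oligodendrocyte lineage markers the sums were 236 to 248 CPM with MK-2206 and 258 to 261 CPM in R47H/+ cells. Markers of border macrophages, monocytes and granulocytes summed to 1106 to 1125 CPM with MK-2206 and 1186 to 1255 CPM in R47H/+ cells, and 4 of their 12 genes had no count in any of the 6 libraries. In bulk libraries such as these, fewer cells of a type and less RNA per cell cannot be told apart.

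MK-2206 changed 2236 of the 12374 genes at an adjusted p under 0.05, which is 18.1% of the genes tested. Of these, 1115 genes (9.01%) were higher and 1121 genes (9.06%) were lower with MK-2206. Most changes were small, since 73.9% of the called genes differed by less than 1.5-fold, and 122 higher and 111 lower genes differed by at least 1 on the log2 scale. The CPM ranges of the 2 groups did not overlap for 34.4% of all genes tested and for 2179 of the called genes (97.5%). The genes named for the widest changes were picked among called genes without overlap, so a lack of overlap adds nothing to their calls. Among 802 tested genes that the deposited table assigns to a transcription factor family, 59 were higher and 56 were lower. The count of called genes was 1428 without MK-2206 replicate 2, 1434 without R47H/+ replicate 1 and 1445 without R47H/+ replicate 2, with shares of higher genes between 48.9% and 50.4% whichever of the 6 libraries was left out. It was 338 when all 18 libraries shared 1 estimate of the spread, and 1878 when 2 libraries of other groups, Trem2+/+ replicate 3 and R47H/+ with tau replicate 2, were left out of that fit.

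**Figure D1:**
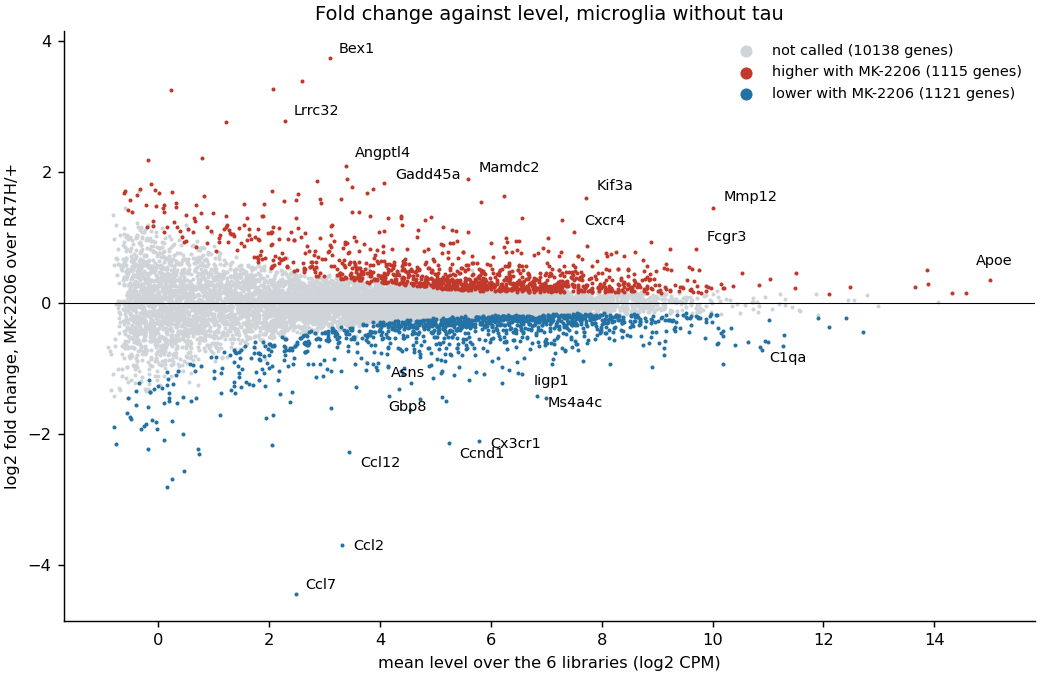
Each point is 1 of the 12374 genes tested, with its mean level over the 6 libraries (log2 CPM) on the horizontal axis and its log2 fold change, MK-2206 over R47H/+, on the vertical axis; red and blue points passed an adjusted p of 0.05. The 1115 higher and 1121 lower genes lie at all levels, and Ccl7 and Ccl2 lie farthest below 0 among the labelled genes and Bex1 farthest above.

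The Akt pathway itself was read first. Akt1, the widely expressed isoform of the kinase, had 330.2, 382 and 382 CPM in MK-2206 libraries, against 299, 271 and 296 CPM in R47H/+ libraries (log2 0.36 ± 0.065 SE, adjusted p = 8.29e-04), and its ranges did not overlap. Akt2, known for its role in insulin signalling, rose to 137, 145 and 150.1 CPM with MK-2206, against 128, 126 and 129 CPM (log2 0.20 ± 0.055, adjusted p = 0.0208). It missed the threshold when any library other than MK-2206 replicate 1 was left out, with adjusted p between 0.0518 and 0.0987. In the fit of 16 libraries, without Trem2+/+ replicate 3 and R47H/+ with tau replicate 2, Akt2 missed it too (adjusted p = 0.059). Of 31 genes of the PI3K-Akt pathway, 8 were higher and 5 lower, with a median log2 fold change of 0.017 against -0.0034 over all genes tested. The higher count was 5 without any 1 library except MK-2206 replicate 1, and the lower count was 2 without R47H/+ replicate 2. Adaptors on the input side moved both ways. Pik3ap1, the adaptor BCAP that brings PI3K to receptors of immune cells, fell to 367, 393 and 404 CPM with MK-2206, against 589, 548 and 548 CPM in R47H/+ cells (log2 -0.51 ± 0.056, adjusted p = 6.28e-06), and Pik3r1, the main regulatory subunit of PI3K, fell by 0.32 on the log2 scale. Pik3r5, a regulatory subunit of the PI3K that G protein-coupled receptors use, rose by 0.40. Phlpp1, a phosphatase of Akt, and Tsc1, a brake on mTORC1, rose by 0.34 and 0.30.

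Many genes that FOXO factors are known to switch on were higher. Of 31 tested genes of FOXO factors and of receptors or targets held down by Akt, 15 were higher and 3 lower, with a median log2 fold change of 0.19. Over the fits without 1 library, 12 to 15 members were higher and 3 to 5 lower, with 5 without MK-2206 replicate 3. Gadd45a, a stress sensor in growth arrest and DNA repair, had 23.8, 26.6 and 27.4 CPM with MK-2206, against 6.86, 7.49 and 7.68 CPM in R47H/+ cells. Every treated library lay far above the highest untreated one (log2 1.84 ± 0.10, adjusted p = 5.57e-09). Fbxo32, the ubiquitin ligase subunit atrogin-1, had 38.0, 42.8 and 37.2 CPM with MK-2206, against 16.8, 18.05 and 14.8 CPM (log2 1.27 ± 0.092, adjusted p = 9.28e-08). The receptors upstream of Akt rose too. Igf1r, the IGF1 receptor, had 50.5, 51.8 and 51.3 CPM with MK-2206, against 26.1, 28.2 and 28.4 CPM (log2 0.92 ± 0.070, adjusted p = 1.29e-07). Irs2, the adaptor that links the insulin and IGF1 receptors to PI3K, had 53.7, 57.2 and 58.5 CPM, against 29.4, 34.4 and 35.9 CPM (log2 0.79 ± 0.079, adjusted p = 2.38e-06). The lowest treated library was above the highest untreated one for both genes. Gabarapl1, an autophagy protein, and Il7r, the receptor for interleukin 7, rose by 0.81 and 0.92, and Cdkn1b, the cell cycle inhibitor p27, by 0.32. The FOXO genes themselves gave log2 fold changes of 0.43 for Foxo4, which passed the test, 0.039 for Foxo3 (adjusted p = 0.689) and -0.10 for Foxo1 (adjusted p = 0.505). The 3 lower members were Sesn1, a brake on mTORC1 (log2 -0.60), Txnip, a brake on glucose uptake (log2 -0.36), and Tsc22d3 (log2 -0.33). Another 13 members were not called, among them Bcl2l11 (log2 0.15), Klf2 (log2 0.021) and Bcl6 (log2 -0.066). The FOXO element GTAAACA, searched on both strands in windows of 250 bases before to 50 bases after the start site, was in 6.24% of higher genes, 3.7% of lower genes, 3.17% of genes tested and 4.05% of all 27025 genes with a window, and in 4 of the 28 members with a window. Of these 4, Sesn1 and Txnip were called lower and none was called higher.

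Part of the cell cycle genes, the D-type cyclins Ccnd1 and Ccnd3 among them, were lower. Ccnd1, which encodes cyclin D1, had 13.4, 16.4 and 11.5 CPM with MK-2206, against 64.2, 62.6 and 58.5 CPM in R47H/+ cells (log2 -2.14 ± 0.10, adjusted p = 7.82e-10), so that all 3 treated libraries lay far below the untreated ones. Ccnd3, another D-type cyclin, fell by 0.48, Mcm5, a subunit of the replicative helicase, by 0.94, and Pcna, the sliding clamp of DNA polymerase, by 0.38 on the log2 scale. Of 41 cell cycle genes tested, 0 were higher and 11 lower, and 38 had a negative log2 fold change, with a median of -0.38. The lower count ranged between 5 without R47H/+ replicate 1 and 10 without R47H/+ replicate 3, and was 6 without R47H/+ replicate 2, 7 without MK-2206 replicate 2 and 7 by DESeq2. Levels of division genes were low in both groups. Mki67, which marks dividing cells, had 6.15, 6.28 and 8.13 CPM with MK-2206, against 10.1, 10.1 and 8.74 CPM (log2 -0.47 ± 0.14, adjusted p = 0.0294). The adjusted p was between 0.067 and 0.125 without R47H/+ replicate 1 or 2 or without MK-2206 replicate 1 or 2. In the fit of 16 libraries it was 0.0917.

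**Figure D2:**
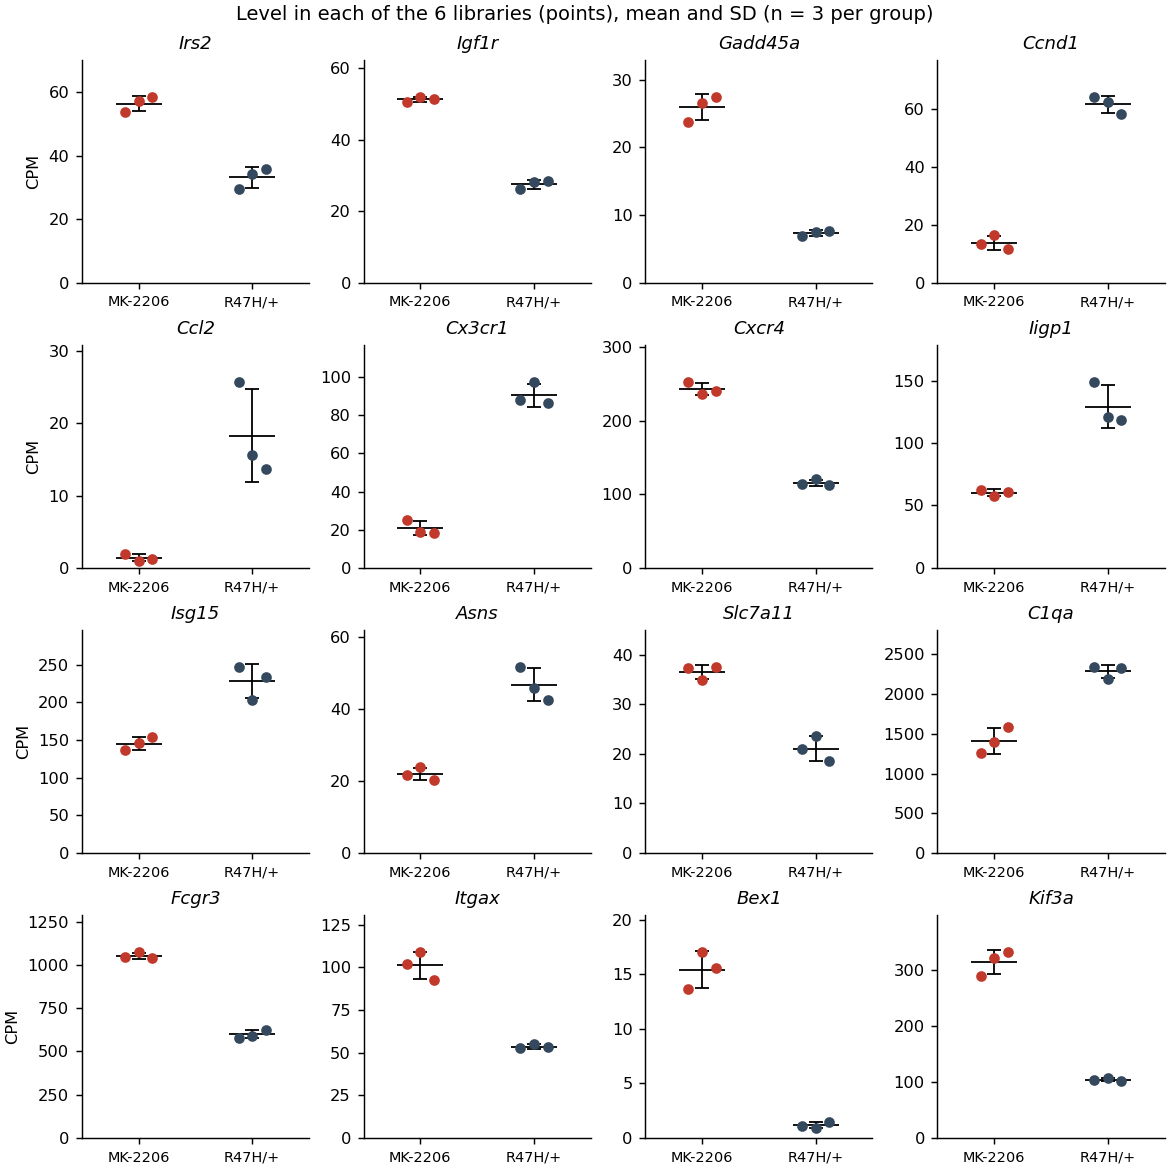
CPM of 16 genes in each of the 3 MK-2206 and 3 R47H/+ libraries without tau (points), with the mean and SD (n = 3 per group); each panel has its own vertical axis from 0. Irs2, Igf1r, Gadd45a, Cxcr4, Slc7a11, Fcgr3, Itgax, Bex1 and Kif3a are higher and Ccnd1, Ccl2, Cx3cr1, Iigp1, Isg15, Asns and C1qa are lower with MK-2206. The groups do not overlap in any panel. The panels show called genes, 97.5% of which had no overlap, so this adds nothing to their calls.

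Interferon-stimulated genes, the first line of antiviral defence, moved in 1 direction. Of 51 tested type I interferon-stimulated genes, 0 were higher and 46 lower with MK-2206, all 51 had a negative log2 fold change, and the median was -0.42. The lower count was between 36 and 47 over the fits without 1 library. The falls were moderate and the levels stayed high. Iigp1, an immunity-related GTPase, had 62.7, 57.3 and 61.1 CPM with MK-2206, against 149, 121 and 118 CPM in R47H/+ cells (log2 -1.08 ± 0.081, adjusted p = 1.05e-07). Ifit2, a protein that binds RNA and acts against viruses, had 931, 844 and 819 CPM, against 1402, 1352 and 1258 CPM (log2 -0.61 ± 0.060, adjusted p = 2.33e-06). Isg15, the ubiquitin-like modifier, had 136, 146 and 154 CPM with MK-2206, against 247, 203 and 234 CPM (log2 -0.63 ± 0.070, adjusted p = 7.61e-06). The treated libraries were below all untreated ones for each of these genes. Oasl1, a relative of the oligoadenylate synthetases, fell by 0.88 on the log2 scale, the GTPases Tgtp2 and Ifi47 by 1.02 and 0.54, and Ifit1 by 0.54, with Tgtp2 counts uncertain because it has a near-identical neighbour. Among the factors that carry the signal, Irf7 fell by 0.42, whereas Irf9 had a log2 fold change of -0.13 (adjusted p = 0.13). Ifitm3 and Lgals3bp were also among the 5 members that did not pass, with -0.098 and -0.054. The cytokine Cxcl10, which interferon induces, had 14.1, 8.25 and 17.8 CPM with MK-2206, against 31.4, 21.4 and 30.4 CPM (log2 -1.03 ± 0.19, adjusted p = 0.001).

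The sequences of 3 promoters, chosen among genes with a match, are shown. The interferon-stimulated response element, to which STAT and IRF factors bind, lies shortly before the start site of these genes. The element was searched on both strands as a pair of TTTC blocks with 2 free bases between them, and matches, which can overlap, are in capitals. Each line gives the 250 bases before the start site in RefSeq on the strand of the gene (GRCm38.p6), at chr4:156200819-156201068 (minus strand) for Isg15, chr19:34640639-34640888 (plus strand) for Ifit1 and chr11:49064213-49064462 (minus strand) for Tgtp2.
Isg15: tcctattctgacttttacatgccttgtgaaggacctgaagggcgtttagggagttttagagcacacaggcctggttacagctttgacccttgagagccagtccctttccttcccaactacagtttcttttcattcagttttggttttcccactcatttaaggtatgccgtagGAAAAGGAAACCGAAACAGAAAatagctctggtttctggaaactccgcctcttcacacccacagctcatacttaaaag
Ifit1: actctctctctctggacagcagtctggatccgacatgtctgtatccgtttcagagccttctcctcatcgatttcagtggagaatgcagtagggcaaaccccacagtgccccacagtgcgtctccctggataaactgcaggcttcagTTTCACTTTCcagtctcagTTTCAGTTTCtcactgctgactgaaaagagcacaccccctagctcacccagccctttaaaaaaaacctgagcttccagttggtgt
Tgtp2: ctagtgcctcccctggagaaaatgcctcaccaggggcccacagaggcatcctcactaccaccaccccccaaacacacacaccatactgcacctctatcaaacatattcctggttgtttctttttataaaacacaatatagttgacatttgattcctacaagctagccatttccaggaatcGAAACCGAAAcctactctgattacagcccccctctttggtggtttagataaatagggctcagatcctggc
Isg15 held 3 overlapping matches, Ifit1 had 2 and Tgtp2 had 1. A match was found in 23 of the 41 interferon-stimulated genes with a promoter window (56.1%), against 3.99% of all 27025 genes with a window. Among genes called lower with MK-2206, 10.9% held a match, against 3.58% of those called higher and 4.07% of all genes tested. Of the 94 lower genes with a match, 22 belonged to the list. These are letters in a window and say nothing about binding.

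Antigen presentation genes, many of which interferon also induces, were lower in part. Of 28 tested, 1 was higher and 13 lower, with a median of -0.24, and the lower count was 8 without R47H/+ replicate 1 and 8 without MK-2206 replicate 2. Tap1, the peptide transporter, had 314, 327 and 356 CPM with MK-2206, against 446, 413 and 426 CPM in R47H/+ cells (log2 -0.34 ± 0.058, adjusted p = 4.79e-04). The class I genes H2-T22, H2-Q6 and H2-Q7 fell by 0.37, 0.70 and 0.45, but counts of such near-identical genes may be shared between them. Cd86, a costimulatory ligand for T cells, fell by 0.33, and Cd74, the class II invariant chain, by 0.35. H2-D1 was the 1 higher member, with 6076, 6321 and 6143 CPM with MK-2206, against 5513, 5370.1 and 4907 CPM (log2 0.25 ± 0.054, adjusted p = 0.00323). Gene families were also gathered after their values were seen. Of 9 guanylate-binding proteins, GTPases that interferon gamma induces, 8 were lower and 0 higher, and Gbp2, Gbp3, Gbp5 and Gbp7 are also members of the interferon list. Gbp8 had 18.4, 19.0 and 18.7 CPM with MK-2206, against 55.0, 48.9 and 49.1 CPM (log2 -1.43 ± 0.078, adjusted p = 3.96e-09). Of 9 genes of the MS4A membrane protein family, 6 were lower and 1 higher, with Ms4a4c at 67.4, 59.6 and 57.6 CPM with MK-2206, against 196, 159 and 146 CPM (log2 -1.42). Of 10 Toll-like receptors, 6 were lower and 0 higher. Tlr1 fell by 1.08, Tlr9, a receptor for DNA, by 0.66 and Tlr3, a receptor for double-stranded RNA, by 0.46 on the log2 scale. Other families gathered in the same way gave 3 higher and 3 lower of 8 chemokine receptors and 2 higher and 1 lower of 6 Siglecs. Of 19 semaphorins, plexins and neuropilins, 5 were higher and 1 lower (5.26%), the latter below the 9.06% of all genes tested. Of 12 PARP enzymes, 6 were lower and 0 higher.

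Chemokines that call in monocytes showed the widest falls of all named genes. Ccl2 had 1.91, 1.01 and 1.29 CPM with MK-2206, against 25.7, 15.6 and 13.6 CPM in R47H/+ cells (log2 -3.69 ± 0.26, adjusted p = 7.53e-08). Its neighbour Ccl7 had 0.239, 0.561 and 0.592 CPM with MK-2206, against 15.6, 9.09 and 6.73 CPM (log2 -4.45 ± 0.37, adjusted p = 2.99e-07). Both are ligands of the receptor Ccr2, and R47H/+ replicate 1 was the highest library for both. Ccl12, a further ligand of Ccr2 in mice, had 3.34, 2.69 and 4.79 CPM, against 23.5, 14.6 and 15.4 CPM (log2 -2.28 ± 0.21, adjusted p = 7.97e-07). Ccr2 itself had 7.41, 9.26 and 12.3 CPM with MK-2206, against 26.9, 28.8 and 22.9 CPM (log2 -1.41 ± 0.14, adjusted p = 2.44e-06), and Ly6c2, a surface marker of monocytes, fell by 1.60. Ccr2 and Ly6c2 belong to the list of border macrophages, monocytes and granulocytes, of which 3 of 6 tested members were lower and 1 higher. The higher member was Mrc1 (log2 0.18, adjusted p = 0.0338), and Pf4 was not called (log2 0.085). The part of such cells in the chemokine values was not tested. Of 25 inflammatory cytokines and chemokines, 3 were higher and 12 lower, with a median of -0.29; the higher count was 1 without R47H/+ replicate 2 or without MK-2206 replicate 3. Il1rn, which blocks interleukin 1, fell by 0.95, Il18, an inflammasome cytokine, by 0.76, and Ccl4, a chemokine, by 0.55. Tnf, the cytokine tumour necrosis factor, had 9.32, 8.08 and 10.4 CPM with MK-2206, against 14.7, 11.4 and 14.1 CPM (log2 -0.51 ± 0.13, adjusted p = 0.0104), with adjusted p = 0.0753 without R47H/+ replicate 1 and 0.075 without MK-2206 replicate 2. Ccl6 was higher, with 547, 538 and 496 CPM with MK-2206, against 409, 406 and 422 CPM (log2 0.37). Il1b had 52.1, 36.5 and 86.0 CPM with MK-2206, against 44.6, 40.3 and 40.4 CPM, and its ranges overlapped (log2 0.50 ± 0.19, adjusted p = 0.0881; 0.0472 without MK-2206 replicate 1, 0.00478 without MK-2206 replicate 2, and between 2.07e-09 without a count filter and 0.693 with 18 libraries over all alternatives). Genes of NF-kB feedback and its targets were near the background, with 3 higher and 5 lower of 33; the lower count was 11 without MK-2206 replicate 3, 2 without R47H/+ replicate 1 or MK-2206 replicate 2 and 3 without R47H/+ replicate 2 or 3, and 5 were higher without MK-2206 replicate 1. Nfkbiz, which makes an inducible co-regulator, fell by 0.52, and Tnfaip2 and Gadd45b rose by 0.52 and 0.45.

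**Figure D3:**
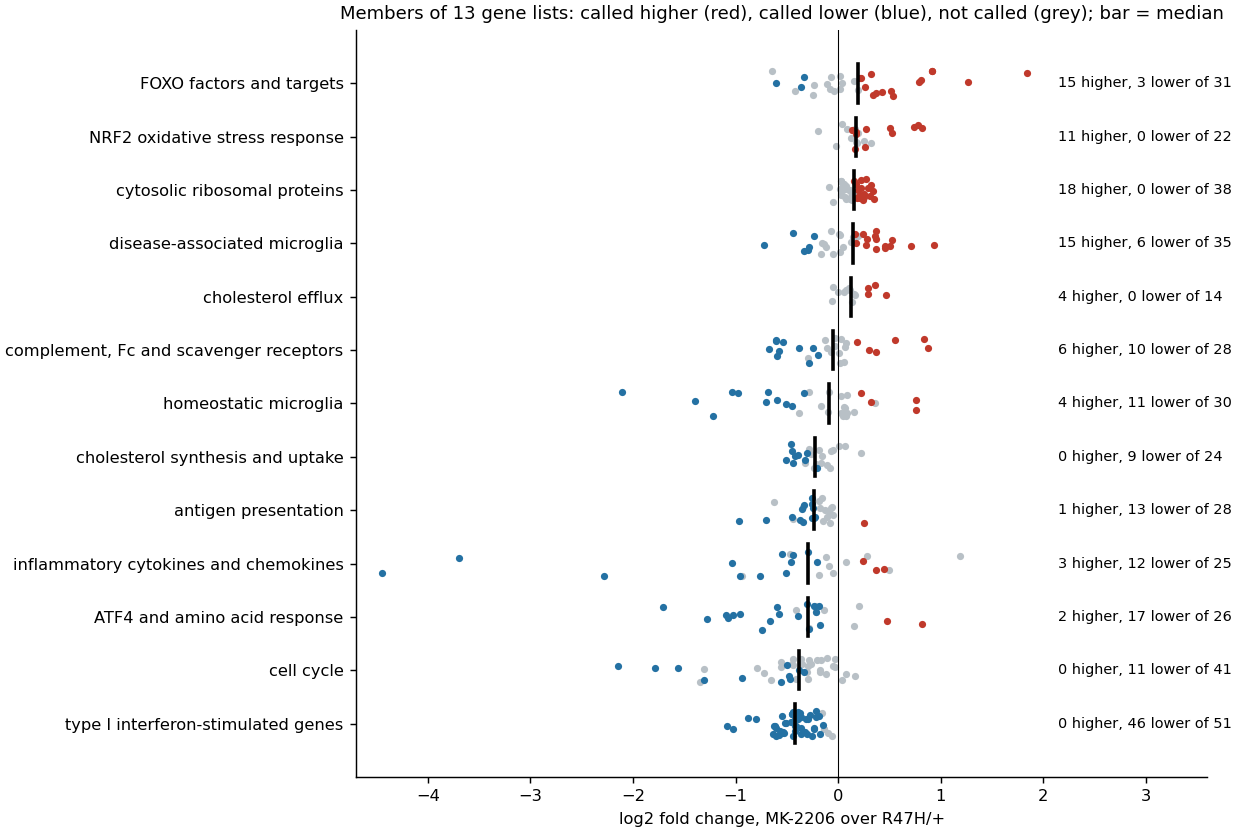
Each point is a tested member of 1 of 13 gene lists, placed by its log2 fold change, MK-2206 over R47H/+ without tau; red and blue points passed an adjusted p of 0.05, grey points did not, and the black bar is the median of the list. All 51 interferon-stimulated genes lie below 0. The 38 members of the ribosomal protein list, Eef1a1 and Eef2 among them, lie in a narrow band with 18 called higher. The cytokine, cell cycle and homeostatic lists each hold a member below -2.

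Calls were fewer when all 18 libraries shared 1 estimate of the spread. In that fit 10 interferon-stimulated genes, 8 homeostatic genes, 8 amino acid response genes, 4 cytokines, 4 identity markers, 3 cell cycle genes, 0 sterol genes and 0 antigen presentation genes were lower. On the higher side 7 FOXO genes, 2 disease-associated genes, 2 NRF2 genes, 1 MAPK early response gene, 1 glycolysis and hypoxia gene, 0 ribosomal protein genes and 0 PI3K-Akt genes passed.

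Receptors through which microglia sense their surroundings changed in both directions. Cx3cr1, the fractalkine receptor by which microglia respond to neurons, had 25.1, 18.6 and 18.5 CPM with MK-2206, against 87.9, 97.2 and 86.2 CPM in R47H/+ cells (log2 -2.11 ± 0.098, adjusted p = 7.82e-10). Cxcr4, the receptor for Cxcl12, moved the other way and had 253, 236 and 241 CPM, against 114, 120.5 and 113 CPM (log2 1.09 ± 0.055, adjusted p = 1.61e-09). Neither gene had overlapping groups. Ccr1, a receptor for several CC chemokines, rose by 0.45. P2ry12, the purine receptor that guides microglial processes, had 13.9, 10.8 and 10.8 CPM with MK-2206, against 23.3, 25.6 and 21.9 CPM (log2 -0.98 ± 0.11, adjusted p = 9.33e-06). Its relative P2ry13 fell by 0.68 and Fcrls, an Fc receptor-like scavenger receptor, by 1.21. Of 30 homeostatic microglia genes, 4 were higher and 11 lower, with a median of -0.091, while the identity sum given above was lower with MK-2206 and its part in these values was not tested. The higher members included Entpd1, the ectonucleotidase CD39, with 344, 345 and 325 CPM with MK-2206, against 187, 213 and 207 CPM (log2 0.76). Cd33, a Siglec whose human counterpart is an Alzheimer's disease risk gene, was also higher. It had 121, 116 and 109 CPM with MK-2206, against 68.4, 71.7 and 67.7 CPM (log2 0.76). Among identity markers shared by microglia and macrophages, 8 of 15 were lower and 0 higher, with Aif1, which encodes IBA1, having fallen by 0.90. Maf, a transcription factor of mature macrophages, and Mef2c, one of microglia, fell by 0.69 and 0.60. Trem2 had 526, 573 and 525 CPM with MK-2206, against 474, 476 and 517 CPM in R47H/+ cells and 1040.2 and 1031 CPM in Trem2+/+ replicates 1 and 2. Its log2 fold change of 0.17 ± 0.057 did not pass (adjusted p = 0.0524), and it passed by DESeq2 (adjusted p = 0.0406), without MK-2206 replicate 1 (0.0194) and without MK-2206 replicate 3 (0.0231). The label names a human allele while the table counts mouse genes, and how reads of such an allele were counted is not given in the sources used here.

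Genes that microglia raise around amyloid plaques, the disease-associated list, were higher more often than lower. Of 35 tested, 15 were higher (42.9%) and 6 lower (17.1%), against 9.01% and 9.06% of all genes tested. The median was 0.15. Itgax, the integrin CD11c, had 102, 109 and 92.9 CPM with MK-2206, against 52.5, 55.1 and 53.3 CPM in R47H/+ cells (log2 0.94 ± 0.067, adjusted p = 8.31e-08). Lgals3, or galectin 3, had 3345, 3486 and 3241 CPM, against 2509.5, 2351 and 2575 CPM (log2 0.46, adjusted p = 1.12e-05). Bhlhe40, a transcription factor, and Ctsl, a lysosomal protease, rose by 0.71 and 0.46. Apoe, the main lipid carrier of the brain, had 32486, 38245 and 39935 CPM with MK-2206, against 28298, 27879.6 and 31463 CPM (log2 0.36 ± 0.069, adjusted p = 0.00141). Members with high counts also went down. Spp1, or osteopontin, fell to 6603, 5779.7 and 4664 CPM with MK-2206, against 8369.5, 7759 and 7259.6 CPM (log2 -0.44), and Lpl, lipoprotein lipase, to 1614, 1555 and 1123 CPM, against 2400.2, 2481 and 2303 CPM (log2 -0.72). Both had group ranges that did not overlap.

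Receptors and opsonins of phagocytosis changed in both directions. All 3 genes of complement C1q were lower, with C1qa at 1260.0, 1397 and 1582 CPM with MK-2206, against 2338, 2189 and 2333 CPM in R47H/+ cells (log2 -0.67 ± 0.069, adjusted p = 3.09e-06), and C1qb and C1qc fell by 0.60 and 0.60. Fc receptors for IgG went in opposite directions. Fcgr3, a low-affinity receptor, had 1045, 1072 and 1039 CPM with MK-2206, against 579, 592 and 626 CPM (log2 0.83 ± 0.052, adjusted p = 2.01e-08), and Fcgr2b, the inhibitory one, rose by 0.56. Fcgr1, the high-affinity receptor, fell to 439, 443 and 470.3 CPM, against 736, 661 and 649 CPM (log2 -0.58). Cd14, the coreceptor for lipopolysaccharide, had 286, 239 and 293 CPM with MK-2206, against 154, 147 and 149 CPM (log2 0.88), whereas the scavenger receptor Msr1 fell by 0.60 and Siglec1, a sialic acid receptor, by 0.58. Of 28 genes of complement, Fc and scavenger receptors, 6 were higher and 10 lower. Lysosome genes and TFEB targets gave 9 higher (21.4%) and 6 lower (14.3%) of 42, against 9.01% and 9.06% of all genes tested. Atp6v0d2, a subunit of the proton pump, had 694, 647 and 510.0 CPM, against 312, 352 and 317 CPM (log2 0.94), while Grn, or progranulin, fell by 0.37.

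Many genes of amino acid supply were lower. The transcription factor ATF4 raises enzymes and transporters for amino acids when they run short and also downstream of mTORC1. Of 26 tested genes of the ATF4 and amino acid response, 17 were lower and 2 higher, with a median of -0.30, and the lower count was 11 without R47H/+ replicate 1. Asns, asparagine synthetase, had 21.7, 23.9 and 20.3 CPM with MK-2206, against 51.7, 46.0 and 42.7 CPM in R47H/+ cells (log2 -1.07 ± 0.089, adjusted p = 3.26e-07). Phgdh, the first enzyme of serine synthesis, had 24.6, 22.7 and 28.9 CPM, against 62.1, 51.4 and 51.3 CPM (log2 -1.09 ± 0.096, adjusted p = 6.37e-07). Trib3, a pseudokinase that ATF4 induces and that is known to bind Akt, had 6.87, 7.46 and 6.08 CPM with MK-2206, against 18.1, 17.3 and 14.9 CPM (log2 -1.28). The neutral amino acid transporter Slc1a4 had 2.03, 1.74 and 1.88 CPM, against 6.64, 5.65 and 6.50 CPM (log2 -1.71 ± 0.19, adjusted p = 6.06e-06), and Slc7a5, the large neutral amino acid transporter, fell by 1.02. Groups did not overlap for any of these genes. Mthfd2, an enzyme of mitochondrial folate metabolism, fell by 0.74. Atf4 mRNA fell by 0.24 (adjusted p = 0.00635), with adjusted p = 0.0546 without R47H/+ replicate 1 and 0.0529 without MK-2206 replicate 2. The 2 higher members were transporters. Slc7a11, which exchanges cystine for glutamate, had 37.4, 35.0 and 37.5 CPM with MK-2206, against 21.0, 23.6 and 18.5 CPM (log2 0.82 ± 0.089, adjusted p = 5.82e-06), and Slc1a5, which carries glutamine, rose by 0.47. Among 17 cytosolic aminoacyl-tRNA synthetases, gathered after values were seen, 10 were lower and 0 higher. Aars, the enzyme for alanine, had 131, 145 and 163 CPM, against 238, 215 and 209.6 CPM (log2 -0.57). Of 8 genes of solute carrier family 7, a family also gathered after values were seen, 4 were lower and 1 higher. The arginine transporter Slc7a1 and the neutral amino acid transporter Slc7a8 fell by 0.87 and 0.71.

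Promoters of 2 lower genes and 1 higher gene of this list are shown because they carry the same amino acid response element. It was searched as TGATGNAAN on both strands, and capitals mark the matches. Lines give the 250 bases before the RefSeq start site (GRCm38.p6), with 4 bases after it for Slc1a4, whose match spans the start. The regions are chr11:20332710-20332963 (minus strand) for Slc1a4, chr2:119350992-119351241 (plus strand) for Chac1 and chr3:50443614-50443863 (minus strand) for Slc7a11.
Slc1a4: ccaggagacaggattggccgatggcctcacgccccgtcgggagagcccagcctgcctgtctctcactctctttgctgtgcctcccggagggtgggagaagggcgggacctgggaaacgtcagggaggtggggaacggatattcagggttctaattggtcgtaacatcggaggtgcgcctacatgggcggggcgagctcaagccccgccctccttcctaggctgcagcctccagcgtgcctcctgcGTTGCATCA
Chac1: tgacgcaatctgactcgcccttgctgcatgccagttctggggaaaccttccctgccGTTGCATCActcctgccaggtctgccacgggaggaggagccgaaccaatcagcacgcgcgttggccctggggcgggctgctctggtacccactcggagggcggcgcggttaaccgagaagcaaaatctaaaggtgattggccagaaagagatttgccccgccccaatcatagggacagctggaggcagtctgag
Slc7a11: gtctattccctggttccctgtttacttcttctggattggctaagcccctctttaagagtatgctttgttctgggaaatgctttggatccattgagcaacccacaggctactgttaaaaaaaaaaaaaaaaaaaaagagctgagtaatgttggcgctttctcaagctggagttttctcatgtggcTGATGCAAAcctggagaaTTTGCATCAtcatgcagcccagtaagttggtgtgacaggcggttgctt
Chac1, an enzyme that breaks down glutathione, had 1.97, 1.74 and 1.56 CPM with MK-2206, against 3.83, 2.70 and 3.84 CPM in R47H/+ cells (log2 -0.96, adjusted p = 0.00808). A match was in 9 of the 25 members with a window (36%), against 4.5% of all genes with a window, 2.75% of genes tested, 4.86% of lower genes and 2.89% of higher genes. The element was thus in the windows of genes that changed in either direction.

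Part of the sterol genes were lower by a small amount. Of 24 genes of cholesterol synthesis and uptake, 9 were lower and 0 higher, 21 had a negative log2 fold change, and the median was -0.22. The lower count was 3 without MK-2206 replicate 2, 5 without R47H/+ replicate 2 and 13 without MK-2206 replicate 3. Cyp51, an enzyme of late cholesterol synthesis, had 60.4, 57.8 and 56.9 CPM with MK-2206, against 83.9, 81.7 and 78.7 CPM in R47H/+ cells (log2 -0.46 ± 0.061, adjusted p = 4.43e-05). Msmo1 and Hmgcs1, enzymes of the same pathway, fell by 0.39 and 0.32. Of 16 genes of fatty acid synthesis, 2 were lower (12.5%), near the 9.06% of all genes tested, and 0 higher. They were Scd2, a desaturase, which fell by 0.60, and Acss2, an acetyl-CoA synthetase, which fell by 0.53. The other 14 were not called, Fasn (log2 0.018) and Srebf1 (log2 0.0058) among them, while 13 of the 16 had a negative log2 fold change. Cholesterol efflux genes gave 4 higher and 0 lower of 14. The 4 were Apoe, Arl4c, Apoc1 and Rxra, the partner of the LXR receptors (log2 0.29). The transporters Abca1 (log2 0.00023) and Abcg1 (log2 -0.047) were not called. Neither were the LXR genes Nr1h2 (log2 0.074) and Nr1h3 (log2 -0.061).

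Angptl4 and Ndrg1, which low oxygen is known to induce, were higher. Angptl4, a secreted inhibitor of lipoprotein lipase, had 18.5, 17.9 and 13.5 CPM with MK-2206, against 3.89, 3.38 and 4.49 CPM in R47H/+ cells (log2 2.10 ± 0.15, adjusted p = 9.42e-08). Ndrg1, a stress-response protein, had 18.8, 20.3 and 22.1 CPM, against 5.83, 6.26 and 7.26 CPM (log2 1.68 ± 0.12, adjusted p = 6.04e-08). Hilpda, which inhibits breakdown of lipid droplets, rose by 1.05, Plin2, their coat protein, by 0.53 and Vegfa, the vascular growth factor, by 0.64. The glycolysis and hypoxia list does not hold Angptl4, Hilpda or Plin2. As a whole it gave 5 higher and 2 lower of 26, with a median of 0.0078. The 2 lower members, 7.69% against 9.06% of all genes tested, were Pdk1 (log2 -0.30) and Gapdh (log2 -0.20). Without MK-2206 replicate 1, 8 members were higher, and without R47H/+ replicate 1, 1 was lower. The glucose transporter gene Slc2a1 had a log2 fold change of 0.17 (adjusted p = 0.15, and 0.0397 without MK-2206 replicate 1). Of 22 NRF2 oxidative stress genes, 11 were higher and 0 lower, and the higher count was 6 or 7 without any 1 R47H/+ library and 6 without MK-2206 replicate 3. Gstm1, a glutathione transferase, had 137, 138 and 134 CPM with MK-2206, against 79.7, 82.8 and 85.6 CPM (log2 0.74 ± 0.056, adjusted p = 1.14e-07). Fth1, the ferritin heavy chain that stores iron, rose by 0.51 and Gsr, glutathione reductase, by 0.78.

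Part of the ribosomal protein genes were higher by a small amount. Of 38 genes in the list of cytosolic ribosomal proteins, 18 were higher and 0 lower. Of the 38, 36 had a positive log2 fold change, and the median was 0.16. The list also holds the elongation factors Eef2, which was called higher (log2 0.23), and Eef1a1, which was not called (log2 0.12). All ribosomal protein genes together held 3.28% to 3.44% of counts with MK-2206 and 2.98% to 3.17% in R47H/+ cells. The higher count was 8 without R47H/+ replicate 2 and 11 without R47H/+ replicate 1. Rps6 had 412, 419 and 451 CPM with MK-2206, against 338, 339 and 363 CPM in R47H/+ cells (log2 0.32, adjusted p = 5.47e-04), and Rpl14 and Rps19 rose by 0.29 and 0.35. The Rpl23a gene had 67.4, 87.0 and 96.7 CPM, against 29.4, 28.3 and 29.4 CPM (log2 1.55); it was named after its values were seen, and its many processed copies make its counts uncertain. Genes of ribosome biogenesis, which mTORC1 is known to drive, gave 1 higher and 2 lower of 28, below the background share. Of these, 0 were lower without any 1 R47H/+ library or without MK-2206 replicate 2, and 0 higher without R47H/+ replicate 1 or 2 or MK-2206 replicate 2. Mitochondrially encoded genes gave 0 higher and 0 lower of 12; by DESeq2 the counts were 0 and 0, 1 had an unadjusted p under 0.05, and 3 were higher without MK-2206 replicate 3.

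Early response genes of MAPK signalling split. Of 26, 10 were higher and 3 lower, and the higher count was 5 without R47H/+ replicate 2, 6 without R47H/+ replicate 3 and 6 without MK-2206 replicate 2. Egr1, a transcription factor, had 26.2, 23.1 and 18.8 CPM with MK-2206, against 46.3, 45.9 and 49.0 CPM in R47H/+ cells (log2 -1.03 ± 0.097, adjusted p = 1.22e-06). Its relative Egr2 had 33.9, 33.4 and 21.4 CPM, against 11.99, 11.9 and 11.7 CPM (log2 1.33 ± 0.14, adjusted p = 5.22e-06), the opposite direction. Etv5, a target of ERK, fell by 0.77, Spred1, a brake on Ras, by 0.48, while Fosl2, a subunit of AP-1, rose by 0.72. Alternative activation genes gave 4 higher (28.6%) and 3 lower (21.4%) of 14, against 9.01% and 9.06% of all genes tested. Arg1, arginase 1, had 56.8, 57.4 and 53.7 CPM with MK-2206, against 29.2, 25.2 and 24.7 CPM (log2 1.10 ± 0.078, adjusted p = 7.28e-08), and Arg2, its mitochondrial counterpart, had 17.4, 15.7 and 17.8 CPM, against 5.99, 4.91 and 4.13 CPM (log2 1.77). Chil3, a chitinase-like protein, fell by 0.74 and F13a1, a clotting factor subunit, by 1.03. Of 10 matrix metalloproteinases, gathered after values were seen, 4 were higher and 0 lower, with Mmp12, the macrophage elastase, at 1796, 1547 and 1125 CPM with MK-2206, against 629.7, 539 and 493 CPM (log2 1.45).

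Some of the widest single changes fell outside these groups. Bex1, a small adaptor protein of the nervous system, had 13.7, 17.0 and 15.6 CPM with MK-2206, against 1.08, 0.921 and 1.48 CPM in R47H/+ cells (log2 3.75 ± 0.18, adjusted p = 8.05e-10). Tceal9, of a related X-linked family, had 110.0, 122 and 106 CPM, against 35.4, 38.2 and 37.3 CPM (log2 1.63 ± 0.069, adjusted p = 3.49e-10). The ranges of the groups did not overlap for either gene, which was a condition for naming the widest changes. Lrrc32, which encodes GARP, a docking protein for latent TGF-beta, rose by 2.79, Slc27a6, a fatty acid transporter, by 2.77, Mamdc2 by 1.89, Nov, a secreted matrix-associated protein, by 1.89, the organic anion transporter Slco4a1 by 1.86, Eef1a2, an elongation factor, by 1.75, Fcrlb by 1.71 and Camk2n1, an inhibitor of CaM kinase II, by 1.67. The mitochondrial tRNA gene mt-Tp rose by 3.28, with 5.49, 9.71 and 6.57 CPM with MK-2206, against 0.486, 0.491 and 1.30 CPM, and so short a gene is poorly covered by libraries of this kind. On the lower side, Cd72, a B cell coreceptor that microglia also carry, had 70.7, 68.9 and 62.7 CPM with MK-2206, against 223, 177 and 163 CPM (log2 -1.46 ± 0.094, adjusted p = 2.97e-08). Slamf9 fell by 1.64, Adgre4, an adhesion receptor of macrophages, by 1.498, Abcg3 by 1.51, Nanos1 by 1.76, Slc24a3, a sodium-calcium exchanger, by 1.71 and Cox6a2, a subunit of cytochrome oxidase, by 2.16. A pair of neighbours on chromosome 11, named after their values were seen, rose by like amounts. Kif3a, a motor of cilia and axons that lies at chr11:53567379-53601967 (plus strand, GRCm38), had 289.7, 320.3 and 331 CPM with MK-2206, against 103, 108 and 102 CPM (log2 1.61 ± 0.061, adjusted p = 1.20e-10), the smallest p of all genes tested. Il4, the cytokine interleukin 4, at chr11:53602982-53618669 on the minus strand, lies 1014 bases beyond the end of Kif3a and had 15.5, 16.6 and 15.8 CPM, against 6.43, 6.08 and 5.91 CPM (log2 1.40 ± 0.11, adjusted p = 2.06e-07). Rad50, the next gene, had a log2 fold change of 0.083 (adjusted p = 0.486). Whether the counting used strand is not given in the sources used here.

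Levels in Trem2+/+ cells without tau, of which replicates 1 and 2 are used, place these changes on a scale. All 46 interferon-stimulated genes that fell with MK-2206 stayed above both Trem2+/+ libraries in every treated library. Ifit2, for example, had 931, 844 and 819 CPM with MK-2206, 1402, 1352 and 1258 CPM in R47H/+ cells and 134 and 181 CPM in Trem2+/+ cells. Of the 17 lower genes of the amino acid response, 14 stayed above both Trem2+/+ libraries in every treated library. The 9 lower sterol genes were below both Trem2+/+ libraries in every R47H/+ library, treated or not, and were lowest with MK-2206. Cyp51 had 60.4, 57.8 and 56.9 CPM with MK-2206, 83.9, 81.7 and 78.7 CPM in R47H/+ cells and 176 and 178 CPM in Trem2+/+ cells. Of the 15 higher disease-associated genes, 11 were below both Trem2+/+ libraries in every untreated R47H/+ library and 5 in every treated one. Itgax had 176 and 162 CPM in Trem2+/+ cells, above both groups given earlier.

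**Figure D4:**
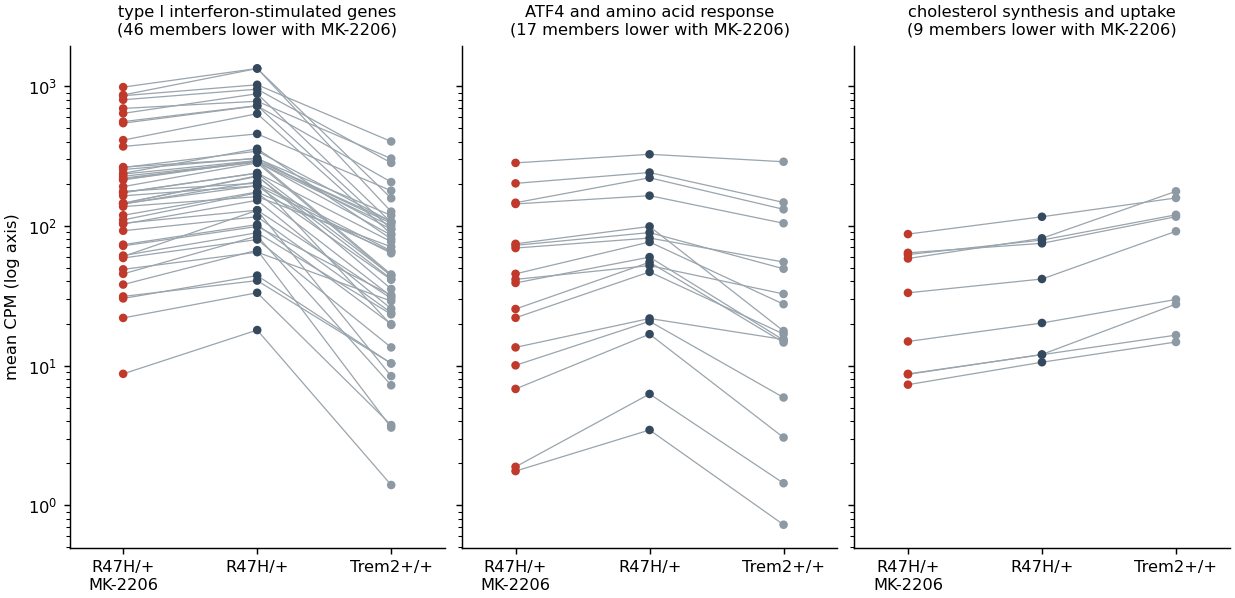
Mean CPM on a log axis of the members of 3 lists that were lower with MK-2206, in R47H/+ cells with MK-2206, in R47H/+ cells and in Trem2+/+ cells (n = 3, 3 and 2 libraries, all without tau); each line is 1 gene. All 46 interferon-stimulated genes are higher with MK-2206 than in Trem2+/+ cells, and all 9 sterol genes are lower.

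The effect of MK-2206 was set beside its effect in cells with tau in 1 fit of 16 libraries and 13498 genes, which left out Trem2+/+ replicate 3 and R47H/+ with tau replicate 2. These 2 libraries stood apart from their groups, with 7.75% and 3.84% of counts on ribosomal protein genes, against 2.80% and 3.06% in the other Trem2+/+ libraries and 2.38% and 2.50% in the others of R47H/+ with tau. In that fit 1878 genes were called without tau and 1620 with tau (12% of genes tested), of which 847 were higher (6.28%) and 773 lower (5.73%). Calls in the same direction numbered 558, which is 29.7% of those without tau and 34.4% of those with tau, and 45 genes were called in opposite directions. The 2 effects differed for 667 genes (4.94%), 372 (2.76%) with a value above 0 for with tau minus without tau and 295 (2.19%) below 0. That count was 323 without R47H/+ with tau replicate 3, which leaves 1 library in that group and assumes that it varies like the others, 420 without MK-2206 replicate 2, and 50 when all 18 libraries were fitted. The calls with tau numbered 818 and 921 without R47H/+ with tau replicate 1 or 3, and 403 with all 18 libraries.

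The effect on interferon-stimulated genes was weaker with tau for part of the list. With tau 5 of 51 were lower and 1 higher (median -0.045), against 40 lower and 0 higher without tau in the same fit (median -0.42), and the effects differed for 21 members, all above 0, and for 0 members below 0. Iigp1 had a log2 fold change of -0.045 with tau and -1.08 without it (difference 1.03 ± 0.15, adjusted p = 3.12e-04). Gbp8 gave -0.054 with tau and -1.43 without it (difference 1.37 ± 0.14, adjusted p = 3.72e-06). Sterol genes were higher in part with tau, with 6 of 24 higher and 0 lower with tau (median 0.24), against 7 lower and 0 higher without tau (median -0.22), and the effects differed for 8, all above 0. Cyp51 gave 0.39 with tau and -0.46 without it (difference 0.84 ± 0.14, adjusted p = 6.83e-04). Cx3cr1 gave -0.19 with tau, against -2.10 without it (difference 1.91 ± 0.14, adjusted p = 9.78e-08), and effects differed upward for 10 of 30 homeostatic genes and downward for 3. Effects on MAPK early response genes differed downward for 10 of 28 and upward for 0, with Dusp1, a MAPK phosphatase, at -0.96 with tau and 0.54 without it (difference -1.49 ± 0.19, adjusted p = 5.83e-05). Glycolysis and hypoxia genes, a list that holds neither Hilpda nor Angptl4, differed downward for 8 of 26 and upward for 2. Hilpda gave -0.77 with tau and 1.05 without it (difference -1.82 ± 0.20, adjusted p = 1.43e-05), and Angptl4 gave -0.16 and 2.10 (difference -2.26 ± 0.45, adjusted p = 0.00397, and 0.0654 without R47H/+ with tau replicate 3). Without that library, 8 interferon-stimulated, 4 sterol and 6 homeostatic genes differed upward, and 8 MAPK and 1 glycolysis and hypoxia gene differed downward. Over all fits without 1 library the range was 8 to 22 for interferon-stimulated genes, with 11 without MK-2206 replicate 2, and 4 to 9 for sterol genes, with 4 without MK-2206 replicate 2 or MK-2206 with tau replicate 2. With all 18 libraries the counts were 1 interferon-stimulated, 0 sterol and 1 homeostatic gene upward and 3 MAPK genes and 1 glycolysis and hypoxia gene downward.

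Lists of FOXO targets, the amino acid response and the cell cycle had medians of the same sign in both settings. With tau 15 of 31 FOXO genes were higher and 1 lower (median 0.31), against 13 higher and 3 lower without tau (median 0.19); 10 were higher with tau without R47H/+ with tau replicate 1 or 3. For Irs2 the log2 fold change with tau was 0.80 (adjusted p = 0.00142), against 0.79 without it, and the difference of 0.0083 ± 0.18 did not pass (adjusted p = 0.99). Gadd45a rose less with tau, by 0.57 against 1.84 without it (difference -1.28 ± 0.19, adjusted p = 3.41e-04). Of 26 amino acid response genes, 12 were lower and 1 higher with tau, against 15 lower and 2 higher without it; 6 were lower with tau without R47H/+ with tau replicate 3. Of 44 cell cycle genes, 17 were lower and 0 higher with tau, against 11 lower and 0 higher without it. The count with tau was 8 without R47H/+ with tau replicate 1 or MK-2206 with tau replicate 3 and 10 without R47H/+ with tau replicate 3. The medians were -0.70 with tau and -0.42 without it for the cell cycle and -0.24 and -0.30 for the amino acid response, and Ccnd1 fell by 1.42 with tau. Bex1, Mamdc2 and Kif3a rose with tau by 5.59, 2.44 and 1.48, and Cxcr4 rose more, by 1.78 against 1.09 without it (difference 0.69 ± 0.11, adjusted p = 6.24e-04). Among the genes with the widest differences, Lifr, the receptor for leukaemia inhibitory factor, had a difference of 2.01. The differences were -2.32 for Rims3 and -1.81 for Syn1, which encode synaptic proteins, -2.04 for Slco4a1, -1.63 for Cgnl1, a protein of cell junctions, and -1.48 for Tceal9. Ccl7 (1.89), Asb10 (1.90), Sult1a1 (1.86) and Garnl3 (1.72) were called above 0 in the fit of 16 libraries and lost the call in at least 1 fit that left out a library.

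**Figure D5:**
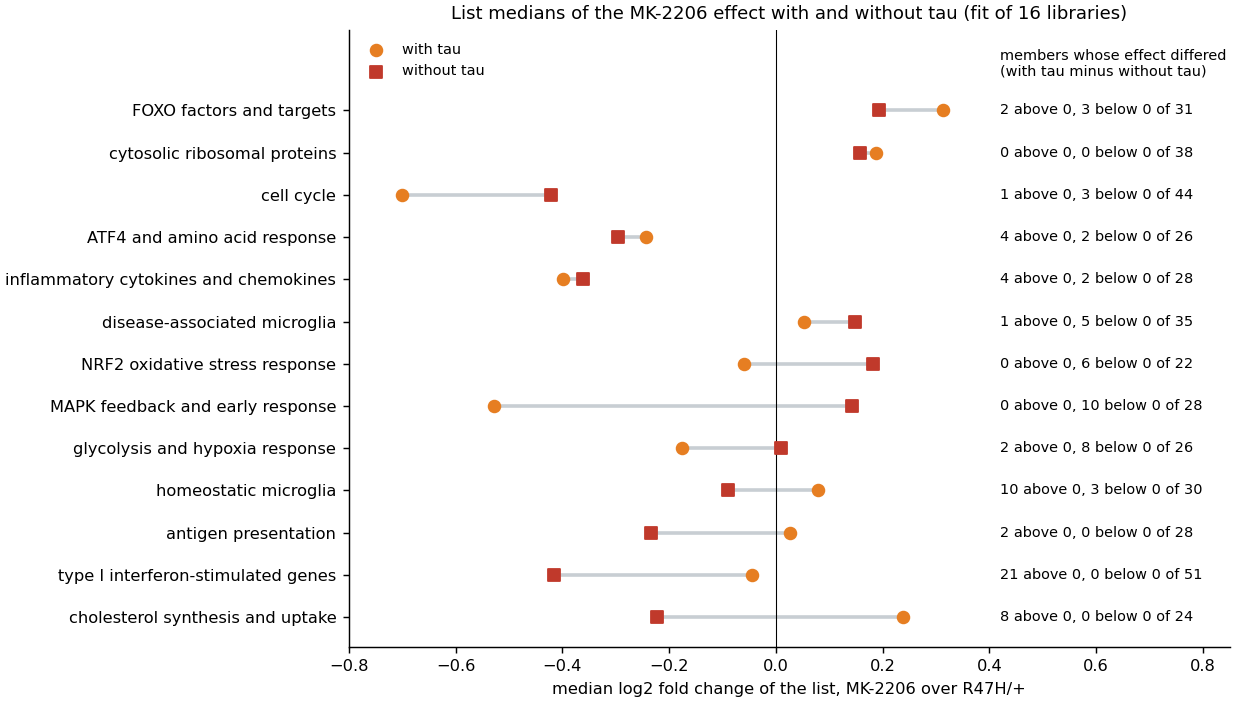
Median log2 fold change of MK-2206 over R47H/+ in 13 gene lists with tau (orange circles) and without tau (red squares), from the fit of 16 libraries; text at the right counts the members whose effect differed between the settings. Medians of interferon-stimulated and sterol genes lie farther right with tau, those of MAPK early response genes farther left, and those of FOXO targets, ribosomal proteins and the amino acid response keep their side of 0.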

How the data were processed

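Primary microglia were profiled by RNA sequencing in 18 libraries, 3 in each of 6 groups, of which 6 enter the main comparison. Per the labels' protocols, NEBNext Ultra libraries of total RNA were read as pairs of 150 bases. STAR, featureCounts, DESeq2 and GRCm38 (mm10) are named in the submitters' processing notes, without versions or settings. The authors deposited 1 table of raw read counts for 54532 genes with each gene's length and position; the counts carry no normalization. Library totals of the 6 libraries ran between 16288531 and 18577842, so genes of low CPM carry the largest errors.

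From these counts, genes were kept by edgeR's filterByExpr, libraries scaled by TMM, and the 6 libraries fitted with glmQLFit and glmQLFTest (R 4.3.3, edgeR 4.0.16, limma 3.58.1), with Benjamini-Hochberg adjustment at 0.05. Effects with tau and the difference between settings came from 1 fit of 16 libraries. CPM used plain library totals, and SE is the log2 fold change divided by the root of F. An exact permutation test of 3 against 3 libraries cannot go below p = 0.1 and was not used. Replicates differed by more than counting noise, with a chi-square per gene of 3.45 to 13.3, the highest between MK-2206 replicates 1 and 3. None was therefore taken as a repeat reading of 1 library. The value cannot tell separate cultures from separate libraries of 1 culture. The main settings were set against DESeq2 1.42.0, RLE scaling, no filter on counts, fits of 16 or 18 libraries, a replicate block and leaving out each library; a gene length correction by lowess (span 0.3) was added after the data were seen.

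Named genes were the 15 largest changes each way among called genes with mean log2 CPM of at least 1 and no overlap, up to 5 per list by p, 16 genes listed by name and the 6 largest differences each way. From the list rule, genes of marker, sex-linked and some other lists are counted only, and some genes that the rule names are not reported here. Further genes inside a list or family, and the 10 families themselves, were chosen after their values were seen. The members and the 29 lists were chosen with earlier results of these data known. Promoter windows are RefSeq's for GRCm38.p6, matched by symbol for 9319 of the 12374 genes tested.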

Additional observations from a re-analysis of the deposited data

Results flagged for a closer look

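The effect of MK-2206 differed between cells with tau and cells without it, by a test of the difference itself, for 667 of 13498 genes. Each value below is the log2 effect with tau minus the log2 effect without tau, and each passed an adjusted p of 0.05 by edgeR's quasi-likelihood test in the fit of 16 libraries. Differences above 0 included Lifr at 2.01, Cx3cr1 at 1.91, Asb10 at 1.90, Ccl7 at 1.89, Sult1a1 at 1.86, Garnl3 at 1.72, Gbp8 at 1.37, Iigp1 at 1.03, Cyp51 at 0.84 and Cxcr4 at 0.69. Differences below 0 included Rims3 at -2.32, Angptl4 at -2.26, Slco4a1 at -2.04, Hilpda at -1.82, Syn1 at -1.81, Cgnl1 at -1.63, Dusp1 at -1.49, Tceal9 at -1.48 and Gadd45a at -1.28. Cx3cr1, Gbp8, Lifr, Cxcr4, Iigp1, Dusp1, Rims3 and Syn1 kept their call in every fit that left out 1 library and in the fit of 18 libraries. Slco4a1, Hilpda, Cgnl1, Tceal9, Gadd45a and Cyp51 lost it in the fit of 18 libraries and in no fit that left out 1 library, whereas Asb10, Ccl7, Sult1a1, Garnl3 and Angptl4 lost it in at least 1 fit that left out a library.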

How the results depend on the processing

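The count of genes changed by MK-2206 without tau was 2236 and came out between 1878 and 2434 under RLE scaling, no count filter, DESeq2, the fit of 16 libraries, the replicate block and the gene length correction, which was chosen after seeing the data. The fit of 18 libraries gave 338 calls, 158 higher and 180 lower, of which 332 were among the 2236 in the same direction; with tau it gave 403, 217 higher and 186 lower, and for the difference 50, 24 above 0 and 26 below 0. Leaving out 1 library gave 1428 to 2876 calls without tau (715 to 1442 higher, 708 to 1434 lower), 818 to 1694 with tau (403 to 953 higher, 415 to 811 lower) and 323 to 723 differences (179 to 448 above 0, 144 to 301 below 0). Of 163 genes named with a value, 8 changed their side of the threshold under an alternative other than the fit of 18 libraries, 72 did so in that fit, and none of these alternatives reversed a direction. Of 73 named genes with a called difference, 60 lost the call with 18 libraries and 33 under another alternative.

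Same-numbered MK-2206 and R47H/+ libraries did not deviate together, with correlations of -0.035, 0.028 and 0.035, so the numbers were not taken as pairs. With the replicate block, 2261 genes were called without tau (1117 higher, 1144 lower; 2148 shared with the 2236), 1333 with tau and 514 for the difference. Genes below about 1 CPM, such as Ccl7 with MK-2206, rest on few reads, and their fold changes are the least precise.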
